A study of Homo sapiens with 8 samples.

Results

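The genes described here are type I interferon-stimulated genes, a set of 43 symbols chosen by name. Each was read by the probe set whose single gene symbol in the array annotation was that symbol. Of the 43, 42 were found among the 18404 genes measured, each with 1 probe set, and STAT2 was not analysed here. Type I interferons are secreted when a cell detects foreign or misplaced nucleic acid. They bind the receptor of IFNAR1 and IFNAR2, and its kinases JAK1 and TYK2 then activate the complex ISGF3, of which IRF9 is the DNA-binding subunit. ISGF3 binds interferon-stimulated response elements (ISREs) in the promoters of the genes described here, many of whose products block viral replication, and some tumour cells express such genes without added interferon.

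RNA was taken from 2 human lung adenocarcinoma lines, as the series title calls them, NCI-H2009 (H2009) and NCI-H1299 (H1299). Each line was infected with lentivirus carrying 1 of 4 short hairpins, namely a control against GFP, a control against luciferase (LUC), and PTK7-1 or PTK7-2 against PTK7, a receptor-like protein of Wnt and planar cell polarity signalling without kinase activity. Infection lasted 2 days and puromycin selection 2 days, with harvest at day 4 after infection, so every array, controls included, comes from cells with a virus, a hairpin and the drug. Uninfected and interferon-treated cells were not analysed here. The 8 arrays form 4 groups of 2, control and PTK7 hairpins in each line, and the arrays of a group differ in hairpin. No hairpin has a second array in the same line. The p-values of comparisons between groups therefore reflect a spread in which differences between hairpins, between infected cultures and between hybridisations cannot be told apart. Where single hairpins were compared over both lines, the lines served as replicates. Those p-values reflect how far a hairpin's values differed between the lines, beyond the mean difference of the lines.

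Array medians lay between 5.31 and 5.41 on the log2 scale, and arrays of a group correlated at 0.981 to 0.997 across genes. PTK7 stood at -0.30 ± 0.17 (log2 difference, PTK7 minus control hairpins, ± standard error of the fit) in H1299 and at -0.96 ± 0.17 in H2009, and neither difference passed (limma adjusted p = 0.804 and 0.222). Epithelial markers differed between the lines. EPCAM read 3.32 to 3.58 over the 4 H1299 arrays and 11.17 to 11.30 over the 4 H2009 arrays, and over 9 such markers the median per array was 4.75 to 4.94 in H1299 and 11.17 to 11.39 in H2009. Of the 42 members, 15 were among the dimmest 40% of genes by mean over the 8 arrays, where RMA compresses differences, and none was filtered out.

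Under control hairpins the members were higher in H2009 than in H1299. The median of the limma difference of the control groups (H1299 minus H2009) was -0.93 over the members, against 0.06 over all genes. This difference was below 0 for 35 of 42 members and 41.5% of all genes. It passed an adjusted p of 0.05 for 24 members, all higher in H2009. In this comparison 24.8% of all genes passed in either direction and 12.3% passed on the side of H2009. In 21 members all 4 H2009 arrays lay above all 4 H1299 arrays, an arrangement found in 16.2% of all genes.

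**Figure D1:**
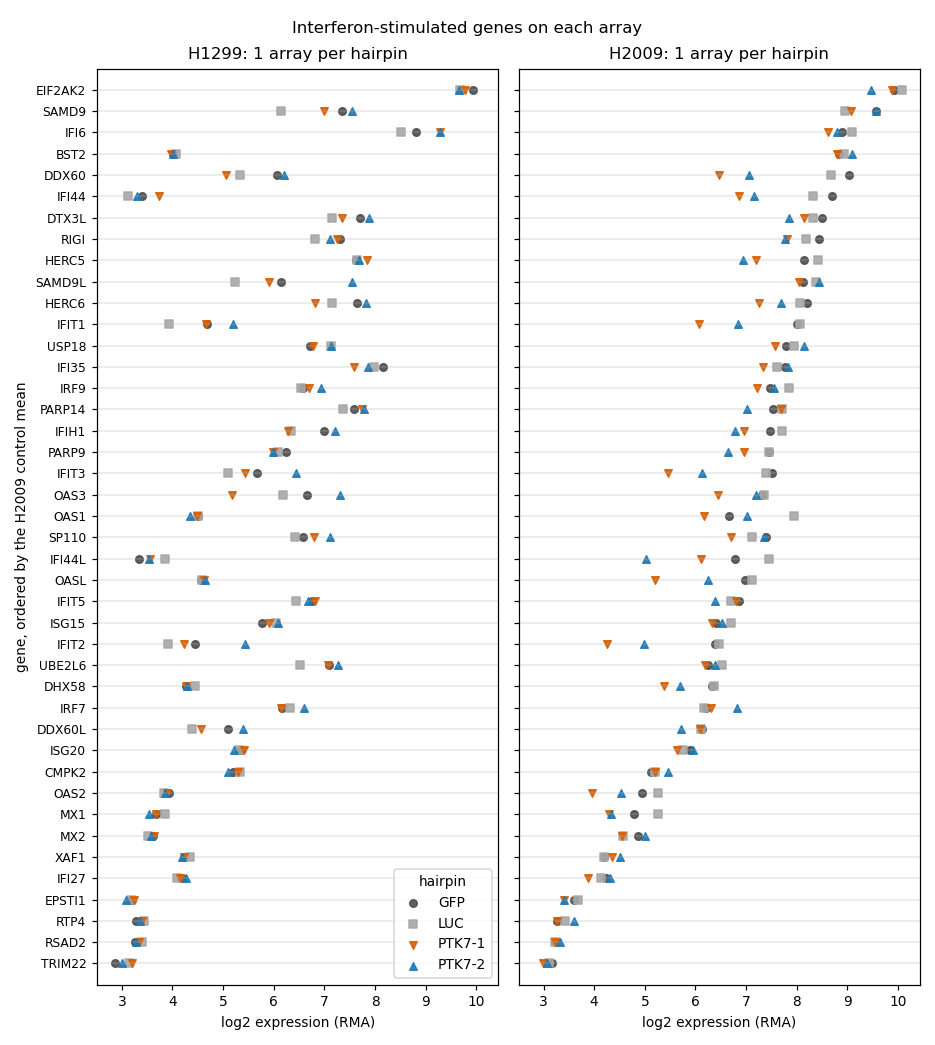
Log2 expression (x axis) of each of the 42 members (rows, ordered by the H2009 control mean) on every array, with H1299 at the left and H2009 at the right; each point is 1 array and its shape and colour give the hairpin. IFI44, BST2 and IFIT1 lie far higher in H2009 than in H1299, while RSAD2, RTP4 and TRIM22 lie at 3.60 or lower on all arrays.

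The largest baseline difference was that of IFI44, a cytosolic protein induced by interferon. Its control arrays read 3.40 with GFP and 3.13 with LUC in H1299, and 8.70 and 8.31 in H2009. The difference was -5.24 ± 0.22, or 37.9-fold (adjusted p = 1.06e-05). The H1299 readings of IFI44 lay near those of RSAD2, at 3.23 to 3.40 on all arrays, and a fold from so low a level is only approximate. BST2, or tetherin, which holds budding virions at the cell surface, read 4.01 and 4.07 in H1299 and 8.83 and 8.94 in H2009, a difference of -4.84 ± 0.14 (adjusted p = 1.96e-06). In both genes the lines did not overlap.

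IFIT1, which binds viral RNA that lacks cap methylation, read 4.69 and 3.93 in the H1299 controls and 8.01 and 8.06 in the H2009 controls, a difference of -3.73 ± 0.34 (adjusted p = 3.59e-04). IFI44L, a paralogue of IFI44, differed by -3.53 ± 0.38, DDX60, a helicase that promotes RNA sensing, by -3.16 ± 0.42 and OAS1, an oligoadenylate synthetase switched on by double-stranded RNA, by -2.80 ± 0.43. These 3 passed as well (adjusted p = 7.55e-04, 0.00186 and 0.00338). SAMD9 and SAMD9L, paralogous restriction factors, differed by -2.51 ± 0.42 and -2.56 ± 0.52 (adjusted p = 0.00531 and 0.0113). IRF9, the DNA-binding subunit of ISGF3, was also higher in H2009, by -1.10 ± 0.18 (adjusted p = 0.00473).

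Other members did not follow this order. The 7 members above 0 in this comparison lay between 0.03 and 0.42, and none passed. They included IFI35 at 0.38 ± 0.20 and UBE2L6, the E2 enzyme that conjugates ISG15, at 0.42 ± 0.21. IRF7, the factor that amplifies interferon production, stood at 0.05 ± 0.22 (adjusted p = 0.903). RSAD2, RTP4, XAF1 and CMPK2 stood between 0.03 and 0.11. ISG15, the ubiquitin-like modifier, was higher in H2009 and stood at -0.65 ± 0.17 (adjusted p = 0.0281) and USP18, the protease that removes it, at -0.94 ± 0.24 (adjusted p = 0.0258).

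In H2009 the PTK7 hairpins gave lower signals than the control hairpins for most members, though no member passed over all genes. The PTK7 minus control difference was below 0 for 34 of 42 members and 43.9% of all genes. Over the members it ran from -2.09 to 0.36, with a median of -0.27 against 0.03 over all genes. Limma called 0 members and 0 of all genes (0.00%). At an unadjusted p under 0.05 it gave 13 members, all lower, against 7.98% of all genes in either direction and 4.34% lower. In 22 members both PTK7 arrays lay below both control arrays, an arrangement found in 18.9% of all genes. The opposite arrangement held for 3 members, IRF7, XAF1 and CMPK2, and for 26.0% of all genes. In bulk RNA, fewer expressing cells and less RNA per cell cannot be told apart.

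DDX60 had the largest difference. It read 9.02 and 8.67 under GFP and LUC, and 6.46 and 7.05 under PTK7-1 and PTK7-2, a difference of -2.09 ± 0.42 or 4.27-fold (adjusted p = 0.284). Averaged over the lines DDX60 stood at -1.07 ± 0.30 (adjusted p = 0.296). When the hairpin entered as a block, DDX60 was the only member that passed in that average (limma adjusted p = 0.0421). There 0.810% of all genes passed. The block takes differences between hairpins of a group out of the error, so its p-values do not cover them. With it the standard error of DDX60 fell from 0.30 to 0.13 at the same difference. In H1299 alone DDX60 stood at -0.05 ± 0.42. In the average, 9 members lay past an unadjusted p of 0.05, all lower, against 9.88% of all genes in either direction and 5.14% lower. Leaving out 1 array gave 6 (without LUC of H2009) to 15 (without PTK7-2 of H1299). HERC5 had the lowest adjusted p of the 42 there, at -0.54 ± 0.11 (adjusted p = 0.194).

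The IFIT genes encode proteins with tetratricopeptide repeats that bind foreign RNA or the translation machinery. IFIT2 read 6.39 and 6.47 under control hairpins and 4.26 and 4.99 under PTK7-1 and PTK7-2, a difference of -1.80 ± 0.42 (adjusted p = 0.336). IFIT3 read 7.51 and 7.39 against 5.46 and 6.14, at -1.65 ± 0.37. IFIT1 read 8.01 and 8.06 against 6.06 and 6.85, at -1.58 ± 0.34. In all 3 genes the groups did not overlap, the control arrays lay close together, and PTK7-1 gave the lower of the PTK7 readings. IFIT5, the fourth gene of this family measured, read 6.86 and 6.70 against 6.80 and 6.39, at -0.18 ± 0.18, with overlapping groups.

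IFI44 read 8.70 and 8.31 under control hairpins and 6.86 and 7.16 under PTK7 hairpins, at -1.50 ± 0.22 (adjusted p = 0.197). IFI44L read 6.79 and 7.45 against 6.11 and 5.02, at -1.56 ± 0.38, and here PTK7-2 gave the lower reading. OASL, an OAS-like protein that enhances RIG-I signalling, read 6.98 and 7.11 against 5.21 and 6.25, at -1.32 ± 0.30. HERC5, the ligase that attaches ISG15 to new proteins, read 8.14 and 8.43 against 7.20 and 6.93, at -1.22 ± 0.15 (adjusted p = 0.197). None of these 4 genes had overlapping groups.

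Among the RNA sensors, DHX58 (LGP2) stood at -0.80 ± 0.14, IFIH1 (MDA5) at -0.72 ± 0.33 and RIGI (RIG-I) at -0.53 ± 0.19, with PTK7 arrays below control arrays in all 3. The synthetases OAS2, OAS1 and OAS3 stood at -0.85 ± 0.20, -0.71 ± 0.43 and -0.51 ± 0.62. MX1, a dynamin-like GTPase that blocks viral nucleocapsids, stood at -0.71 ± 0.18 and its paralogue MX2 at 0.06 ± 0.18. EIF2AK2, the kinase PKR, stood at -0.33 ± 0.18 and IRF9 at -0.28 ± 0.18. IRF9 read 7.47 and 7.84 under control hairpins and 7.21 and 7.54 under PTK7 hairpins, so its groups overlapped.

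Some members that were high in the H2009 controls had a mean of the PTK7 readings near the control mean. BST2 read 8.83 and 8.94 under control hairpins and 8.79 and 9.08 under PTK7 hairpins, a difference of 0.05 ± 0.14. SAMD9 read 9.56 and 8.96 against 9.06 and 9.57, at 0.06 ± 0.42. SAMD9L read 8.12 and 8.38 against 8.04 and 8.44, at -0.01 ± 0.52. USP18 read 7.78 and 7.95 against 7.58 and 8.13, at -0.01 ± 0.24. These 4 genes were all higher in H2009 than in H1299 at baseline and had overlapping control and PTK7 arrays. In BST2, SAMD9L and USP18 the PTK7-1 array lay below both controls and the PTK7-2 array above both, so opposite readings offset each other in the mean. IRF7 read 6.21 and 6.17 against 6.30 and 6.81, at 0.36 ± 0.22 (adjusted p = 0.713), with the PTK7 arrays above the controls.

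**Figure D2:**
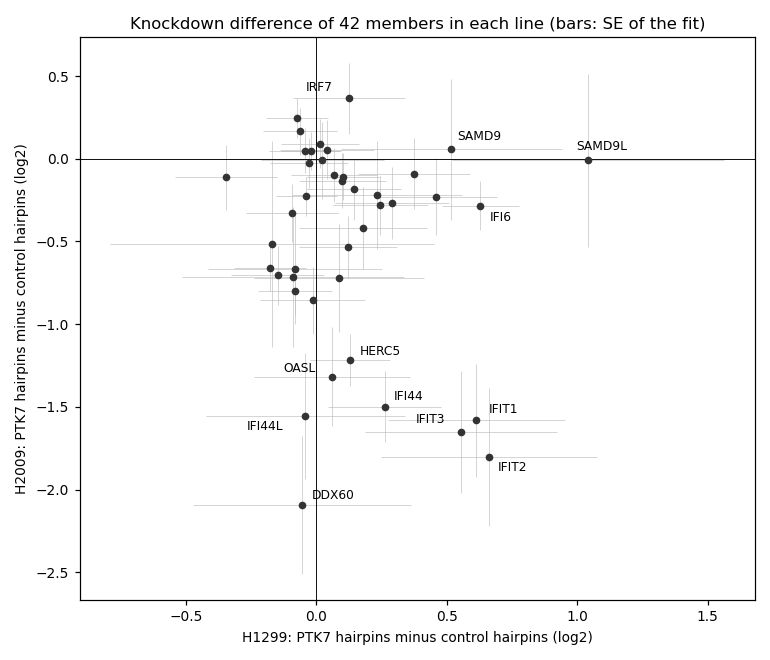
Log2 difference of PTK7 minus control hairpins for each of the 42 members in H1299 (x axis) and H2009 (y axis); points are fitted differences over 2 arrays a group and bars are standard errors of the fit. DDX60 lies lowest at -2.09 in H2009 and near 0 in H1299, the IFIT1, IFIT2 and IFIT3 points lie above 0.5 in H1299 and below -1.5 in H2009, and SAMD9L lies farthest right at 1.04.

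Promoters of 34 of the 42 members were matched by symbol in RefSeq (build GRCh38.p14), each 250 bases before to 50 after a listed start. They were searched on both strands for the ISRE core, GAAA, any 2 bases and GAAA, with overlapping matches counted. It was present at a listed start of 24 of the 34 members (70.6%) and of 4.38% of the 27305 genes in the table. The gamma-activated site TTCNNNGAA was present in 10 of 34 members (29.4%) and in 9.38% of all genes. The median H2009 difference was -0.30 in the 24 members with the ISRE core, with a range of -2.09 to 0.09, and -0.17 in the 10 without it, with a range of -0.71 to 0.25. These values describe the matched members and were not tested. The 8 members without a matched promoter were IFIT2, OAS2, OASL, MX2, USP18, IRF7, TRIM22 and DHX58. They include members with large H2009 differences, such as IFIT2 at -1.80 and OASL at -1.32, and others such as MX2 at 0.06 and IRF7 at 0.36. No match says only that these letters are absent from this window.

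The 160 bases before the first listed start are shown for 8 members with a match, 4 with H2009 differences between -2.09 and -1.50 (IFIT1, IFIT3, DDX60 and IFI44) and 4 with differences between -0.22 and 0.06 (IFIT5, DDX60L, SAMD9 and BST2). These were picked after their values were seen. Sequences read 5′ to 3′ on the strand of the gene, and capitals mark the ISRE core on either strand.
IFIT1 (chr10:89392463-89392622, plus strand): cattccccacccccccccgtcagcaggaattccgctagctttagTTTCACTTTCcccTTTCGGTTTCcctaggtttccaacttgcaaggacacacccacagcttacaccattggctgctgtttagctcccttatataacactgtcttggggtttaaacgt
IFIT3 (chr10:89327837-89327996, plus strand): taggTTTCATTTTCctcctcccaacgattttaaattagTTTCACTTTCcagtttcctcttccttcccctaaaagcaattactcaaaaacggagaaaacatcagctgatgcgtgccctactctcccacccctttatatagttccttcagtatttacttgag
IFIT5 (chr10:89414408-89414567, plus strand): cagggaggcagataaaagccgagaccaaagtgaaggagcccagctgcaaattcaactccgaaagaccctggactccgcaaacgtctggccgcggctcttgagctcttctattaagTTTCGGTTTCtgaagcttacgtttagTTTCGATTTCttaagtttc
DDX60 (chr4:168318753-168318912, minus strand): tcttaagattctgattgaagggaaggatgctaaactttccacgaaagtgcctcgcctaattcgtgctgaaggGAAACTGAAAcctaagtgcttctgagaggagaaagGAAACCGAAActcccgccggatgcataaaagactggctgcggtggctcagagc
DDX60L (chr4:168480493-168480652, minus strand): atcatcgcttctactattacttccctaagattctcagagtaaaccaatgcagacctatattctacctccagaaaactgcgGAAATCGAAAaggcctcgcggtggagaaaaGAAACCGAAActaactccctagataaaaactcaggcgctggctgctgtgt
IFI44 (chr1:78649629-78649788, plus strand): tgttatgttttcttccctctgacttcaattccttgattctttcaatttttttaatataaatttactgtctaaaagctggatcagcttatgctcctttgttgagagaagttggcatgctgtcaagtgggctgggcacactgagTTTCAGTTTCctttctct
SAMD9 (chr7:93117980-93118139, minus strand): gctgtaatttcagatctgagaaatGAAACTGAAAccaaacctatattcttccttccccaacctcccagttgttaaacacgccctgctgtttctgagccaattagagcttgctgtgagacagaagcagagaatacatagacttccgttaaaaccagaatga
BST2 (chr19:17405631-17405790, minus strand): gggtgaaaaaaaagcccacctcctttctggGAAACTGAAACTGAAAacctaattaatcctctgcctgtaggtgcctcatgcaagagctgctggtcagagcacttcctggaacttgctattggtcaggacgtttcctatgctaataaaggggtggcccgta
IFIT1 and IFIT3 hold 2 matches each, and the inner matches begin 103 bases before the start in IFIT1 and 122 in IFIT3. IFIT5, 1 of the 4 IFIT genes in the same stretch of chromosome 10, has 2 matches within the bases shown that begin 45 and 19 bases before its start, and a further match that runs across it. DDX60 and DDX60L each hold 2 matches, and the match nearest the start begins 53 bases before it in DDX60 and 50 in DDX60L, with the same letters in both. DDX60 stood at -2.09 and DDX60L at -0.22 in H2009. SAMD9 and BST2 hold the core as well, in GAAACTGAAA, which DDX60 also carries.

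Members that lie side by side in the genome had like values in some groups and unlike values in others, with no test of the differences. With at most 1 other protein-coding gene allowed between neighbours, 22 members fell into 9 groups of 2 to 4. On chromosome 10, IFIT2, IFIT3 and IFIT1 stood between -1.80 and -1.58 in H2009 and IFIT5 at -0.18. On chromosome 4, DDX60 and DDX60L differed as given above, while HERC5 stood at -1.22 and HERC6 at -0.66. On chromosome 21, MX1 stood at -0.71 and MX2 at 0.06. On chromosome 12, OAS1, OAS3 and OAS2 stood at -0.71, -0.51 and -0.85, and on chromosome 2, CMPK2 and RSAD2 at 0.17 and 0.05. IFI44L and IFI44 on chromosome 1 stood close together at -1.56 and -1.50, and SAMD9 and SAMD9L on chromosome 7 at 0.06 and -0.01. On chromosome 3, PARP9, DTX3L and PARP14, of which PARP9 and DTX3L form an enzyme complex, stood at -0.66 ± 0.14, -0.42 ± 0.25 and -0.27 ± 0.22. DDX60L is a close paralogue of DDX60, and probe cross-hybridisation between paralogues was not tested.

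**Figure D3:**
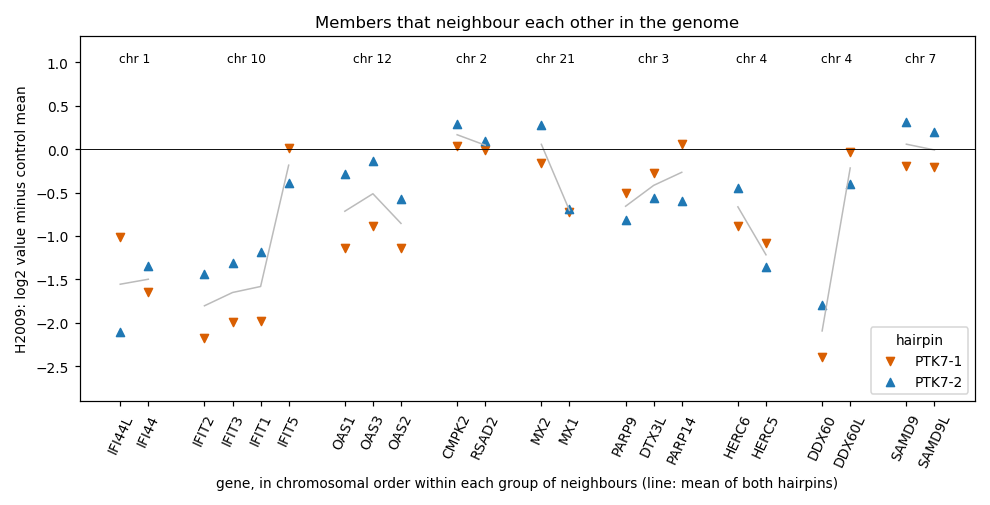
Log2 value of the PTK7-1 (downward triangles) and PTK7-2 (upward triangles) arrays of H2009 minus the mean of the H2009 control arrays, for the 22 members that neighbour another member, in chromosomal order; grey lines join the means of both hairpins. IFIT5 and DDX60L lie near 0 beside neighbours between -1.58 and -2.09.

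In H1299 the members as a set stood close to the controls. The difference was above 0 for 25 of 42 members and below 0 for 17, against 50.6% of all genes below 0. Its median was 0.06 against -0.0026 over all genes, and limma called 0 members (0.00543% of all genes passed). At an unadjusted p under 0.05 there was 1 member, which was higher, against 7.48% of all genes in either direction and 4.15% higher. Both PTK7 arrays lay above both control arrays in 6 members (15.6% of all genes) and below them in 3 (16.1%). That member was IFI6, a small membrane protein that restrains apoptosis. It read 8.80 and 8.51 under control hairpins and 9.27 and 9.29 under PTK7 hairpins, at 0.63 ± 0.15 (adjusted p = 0.364). In H2009 the same gene stood at -0.28 ± 0.15.

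In the other members with large H1299 differences the PTK7-2 array stood apart. SAMD9L read 6.13 under GFP, 5.24 under LUC, 5.91 under PTK7-1 and 7.55 under PTK7-2, a difference of 1.04 ± 0.52 (adjusted p = 0.762). PTK7-1 lay between the controls, and without PTK7-2 the difference was 0.22. IFIT2 read 4.44, 3.91, 4.23 and 5.44 in the same order, at 0.66 ± 0.42, and at 0.06 without PTK7-2. IFIT1 read 4.69, 3.93, 4.65 and 5.19, at 0.61 ± 0.34, and IFIT3 read 5.66, 5.10, 5.44 and 6.44, at 0.55 ± 0.37. In IFIT1 and IFIT3, too, PTK7-1 lay between the controls and PTK7-2 above both.

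The direct test between the lines (H1299 minus H2009 difference) called 0 members and 0.00% of genes. Its median over the members was 0.50 against -0.03 over all genes, and 33 of 42 were above 0 and 9 below. Over all genes 54.7% were below 0. At an unadjusted p under 0.05 there were 13 members, all with the higher difference in H1299, against 5.17% of all genes in either direction and 2.98% on that side. IFIT2 stood at 2.46 ± 0.59, IFIT3 at 2.21 ± 0.52, IFIT1 at 2.19 ± 0.48 and DDX60 at 2.04 ± 0.59, followed by IFI44 at 1.76 ± 0.31 and HERC5 at 1.35 ± 0.22. The lowest adjusted p among members was 0.848, so a difference between the lines was not established for any of them. Some of the 13 had little room to fall in H1299. There IFI44 read 3.13 to 3.74 and IFI44L 3.33 to 3.86, near RSAD2, which read 3.23 to 3.40 on all arrays. Others of the 13 read well above that level in H1299, such as HERC5 at 7.62 to 7.84 and RIGI at 6.81 to 7.31. The part of the low H1299 level in this comparison was not tested.

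The PTK7 hairpins were then taken one by one. In H2009 the PTK7-1 array lay below both control arrays in 34 of 42 members (38.6% of all genes) and the PTK7-2 array in 24 (33.5%). Above both controls lay PTK7-1 in 3 members (40% of all genes) and PTK7-2 in 13 (50.8%). In 26 members PTK7-1 gave the lowest of the 4 H2009 readings, as in 28.6% of all genes. In H1299 the PTK7-1 array lay below both controls in 10 members (32.8%) and above both in 12 (36.8%), and the PTK7-2 array lay below in 9 (39.1%) and above in 21 (34.2%).

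**Figure D4:**
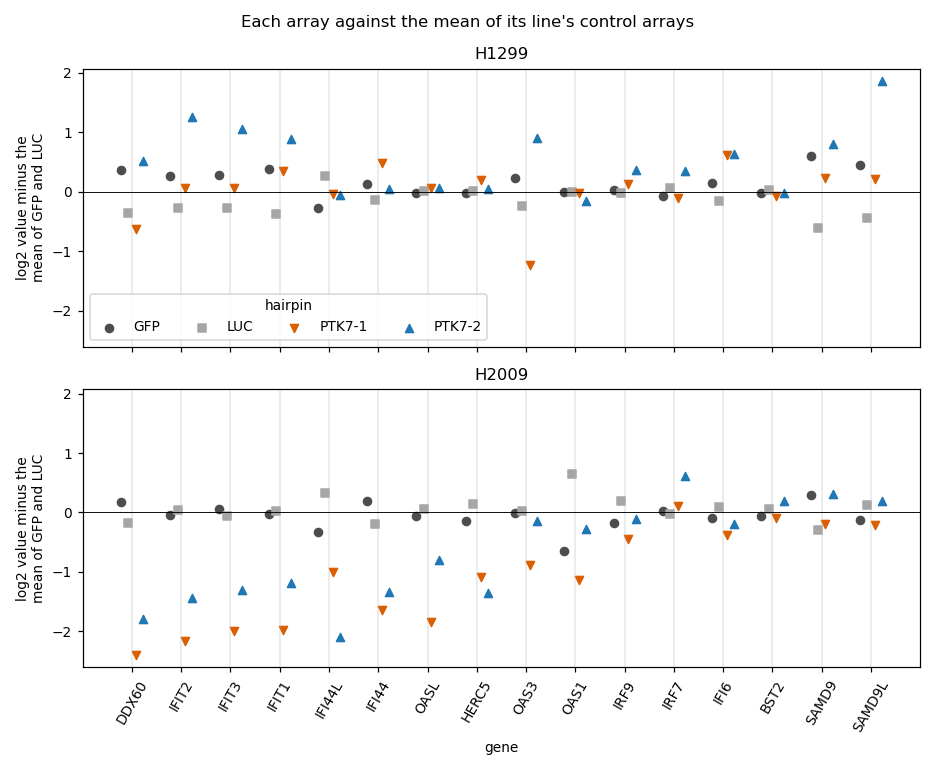
Log2 value of each array minus the mean of the GFP and LUC arrays of the same line (y axis) for 16 members (x axis), with H1299 above and H2009 below; each point is 1 array. In H2009 both PTK7 hairpins lie below both controls in DDX60, IFIT1, IFIT2, IFIT3, IFI44, IFI44L, OASL and HERC5, and in H1299 PTK7-2 lies above both controls in IFIT1, IFIT2, IFIT3, OAS3, SAMD9 and SAMD9L.

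OAS3, the largest of the oligoadenylate synthetases, was the 1 member that passed between PTK7-1 and PTK7-2, where 3.73% of all genes passed. It read 5.18 with PTK7-1 and 7.32 with PTK7-2 in H1299, and 6.45 and 7.19 in H2009. The controls read 6.65 and 6.18 in H1299 and 7.32 and 7.35 in H2009, so PTK7-1 was lowest in both lines. The difference in a fit of hairpin plus line was -1.44 ± 0.31 (adjusted p = 0.0485). The call was lost with quantile normalization (adjusted p = 0.0551) and with median centring (0.0638), and on leaving out any array other than PTK7-2 of H2009.

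The next largest differences between the PTK7 hairpins were those of SAMD9L at -1.02 ± 0.43, IFIT2 at -0.97 ± 0.66, DDX60 at -0.87 ± 0.55 and IFIT3 at -0.84 ± 0.59, and none passed (adjusted p = 0.258, 0.541, 0.497 and 0.561). Over the members the median was -0.19, against -0.02 over all genes, with 31 of 42 lower under PTK7-1 against 54.5% of all genes. At an unadjusted p under 0.05 there were 7 members, all lower under PTK7-1, against 18.3% of all genes in either direction and 10.1% lower. Leaving out 1 array moved this median between -0.35 (without PTK7-1 of H1299) and -0.03 (without PTK7-1 of H2009). The count was not stable either. Against the mean of the controls, over both lines, PTK7-1 gave a median of -0.16 and PTK7-2 one of -0.03, against 0.01 and 0.04 over all genes. With PTK7-1 32 of 42 members were lower (46.4% of all genes), and with PTK7-2 23 of 42 (42.3%). Leaving out 1 array moved the PTK7-1 median between -0.31 (without PTK7-1 of H1299) and -0.03 (without PTK7-1 of H2009). It moved the PTK7-2 median between -0.19 (without PTK7-2 of H1299) and 0.09 (without LUC of H2009), so the sign of the PTK7-2 median was not stable. No member passed in either comparison (1.23% and 2.15% of all genes did). At an unadjusted p under 0.05 PTK7-1 gave 8 members, all lower (12.9% of all genes in either direction, 7.76% lower). PTK7-2 gave 7 (16.8% of all genes), of which 4 were lower (8.51%) and 3, IRF7, SAMD9 and SAMD9L, higher (8.32%). These counts were not stable when 1 array was left out, which leaves 1 hairpin with 1 array. These comparisons share their control arrays. Within H2009 the medians were -0.34 with PTK7-1 and -0.25 with PTK7-2, and within H1299 they were 0.02 and 0.07. IRF7 stood at 0.00 ± 0.12 with PTK7-1 and at 0.49 ± 0.12 with PTK7-2 (adjusted p = 0.0989), and in H1299 it read 6.13 and 6.60 against controls of 6.17 and 6.31.

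Between the control hairpins GFP and LUC limma called 0 members and 0.00% of genes, with 1 member at an unadjusted p under 0.05, higher with GFP (3.65% of all genes in either direction, 2.13% higher). That member was SAMD9, which read 7.36 with GFP and 6.15 with LUC in H1299, and 9.56 and 8.96 in H2009, at 0.91 ± 0.20 (adjusted p = 1.00). OAS1 stood at -0.65 ± 0.36, and read 6.66 with GFP and 7.95 with LUC in H2009 against 4.50 and 4.51 in H1299. IFI44L at -0.60 ± 0.45 was higher with LUC in both lines. DDX60 stood at 0.54 ± 0.55, and below 0 when LUC of H1299 or GFP of H2009 was left out (-0.27 and -0.01). On the arrays DDX60 was higher with GFP than with LUC in both lines (6.06 and 5.33 in H1299, 9.02 and 8.67 in H2009). The values below 0 arise because the fit then estimates the missing reading from the line difference of the other hairpins. In H1299, 13 members had the GFP and PTK7-2 arrays above the LUC and PTK7-1 arrays, an arrangement that crosses the groups and was found in 15.6% of all genes. They included IFIT1, IFIT2, IFIT3, DDX60, OAS3, SAMD9 and SAMD9L.

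Genes upstream of the members were read from lists chosen by name. Of 20 interferon genes, 15 had a probe set of their own. IFNB1, the first interferon made on infection, read 2.81 to 3.21 over the 8 arrays, and the median interferon gene read 2.97 to 3.23. IFNL3, a type III interferon, read 6.77 to 7.55 on the same arrays. In H2009 IFNL2 stood at 0.43 ± 0.17, IFNL3 at 0.28 ± 0.18 and IFNA13 at 0.18 ± 0.14, and none of the 15 passed. Among 6 receptor genes, IFNAR1 stood at -0.24 ± 0.20, IFNLR1 at -0.26 ± 0.19 and IFNGR2 at 0.36 ± 0.17 in H2009, and none passed. At baseline IFNAR2 and IFNGR2 were higher in H1299, by 1.23 ± 0.16 and 1.21 ± 0.17 (adjusted p = 0.00187 and 0.00236), the opposite order to most members.

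Of 11 further transducers and IRF factors, 3 were higher and 8 lower in H2009 under PTK7 hairpins, and none passed. Of all genes 43.9% were lower in that comparison. BATF2 stood at 0.37 ± 0.13 in H2009 and 0.52 ± 0.13 in H1299, and JAK2 at -0.27 ± 0.11 and IRF8 at 0.19 ± 0.14 in H2009. STAT3 was higher in H2009 at baseline, at -1.13 ± 0.20 (adjusted p = 0.00619). Of 17 nucleic acid sensors, adaptors and kinases, 12 were lower in H2009, with a median of -0.17, and none passed. RNF135, which ubiquitinates RIG-I, stood at -0.58 ± 0.20, DDX41 at -0.29 ± 0.11 and TICAM1, an adaptor of Toll-like receptors, at 0.39 ± 0.16. At baseline 4 of the 17 passed as higher in H1299 and 4 as higher in H2009, where 24.8% of all genes passed. The baseline median of the list was 0.04. Among those higher in H2009 were IFI16, a DNA sensor, and MYD88, another adaptor of Toll-like receptors. They stood at -4.62 ± 0.23 and -4.01 ± 0.29 (limma adjusted p = 2.22e-05 and 1.18e-04).

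Of 14 negative regulators, 10 were lower in H2009 (43.9% of all genes), with a median of -0.22, and none passed. PTPN11 stood at 0.42 ± 0.16, NLRC5 at -0.44 ± 0.14 and PIAS3 at -0.40 ± 0.17. NLRC5 and PTPN6 were higher in H2009 at baseline, at -2.09 ± 0.14 and -2.71 ± 0.18 (adjusted p = 7.93e-05 and 8.22e-05). Interferon-induced genes outside the set, 45 with a probe set of their own, had a median of -0.11 in H2009 with 29 lower, and 0.09 in H1299 with 19 lower, and none passed. Of all genes 43.9% were lower in H2009 and 50.6% in H1299. TNFSF10, the death ligand TRAIL, read 5.43 and 6.53 under control hairpins and 4.55 and 4.03 under PTK7 hairpins in H2009, at -1.69 ± 0.34 (adjusted p = 0.290). IFITM1, which blocks viral entry, stood at -0.89 ± 0.26 and ZC3HAV1, which binds viral RNA, at -0.66 ± 0.12. In these 3 genes the PTK7 arrays lay below the control arrays.

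Targets shared with interferon gamma gave a median of -0.09 in H2009, with 10 of 18 lower (43.9% of all genes) and none past the threshold. GBP2, a guanylate-binding GTPase, stood at -1.04 ± 0.23 and GBP4 at -0.48 ± 0.19, and HLA-DPA1 stood on the other side at 0.35 ± 0.20. At baseline GBP2 was higher in H2009, at -2.38 ± 0.23 (adjusted p = 4.79e-04), and WARS1 higher in H1299, at 1.59 ± 0.14 (adjusted p = 3.02e-04). The chemokine genes CXCL9, CXCL10 and CXCL11 read between 2.78 and 3.33 on all arrays. Markers of other cell types stood at medians of 0.10 (11 leukocyte markers), 0.07 (10 fibroblast markers) and 0.16 (8 endothelial markers) in H2009, and 9 epithelial markers at 0.0052, and none passed. Among the leukocyte markers, PTPRC read 2.78 to 3.01 over the 8 arrays, CD79A 4.93 to 7.64 and CD68 7.76 to 10.48. At baseline CD68 was higher in H1299, at 2.27 ± 0.31 (adjusted p = 0.00202), and CD79A higher in H2009 (adjusted p = 0.0139). Per array of H2009, the leukocyte median read 4.26 and 4.37 under control hairpins and 4.24 and 4.51 under PTK7 hairpins. Their part in the members' differences was not tested.

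In the comparisons of single hairpins over both lines 5 genes of these lists passed. The lists held 6 to 45 genes each. Over all genes 1.23% passed with PTK7-1 against controls, 2.15% with PTK7-2 and 3.73% between the PTK7 hairpins. Whether the lists exceeded these shares was not tested. TRAF3, an adaptor of the sensing pathways, stood at -0.74 ± 0.12 with PTK7-1 against controls (adjusted p = 0.0357) and at -1.04 ± 0.14 between PTK7-1 and PTK7-2 (adjusted p = 0.0120). TNFAIP3, the negative regulator A20, stood at 1.10 ± 0.19 with PTK7-2 against controls (adjusted p = 0.0360) and at -1.20 ± 0.22 between the hairpins (adjusted p = 0.0334). With PTK7-2 against controls RNF135 stood at -0.67 ± 0.12 and ADAR, which edits double-stranded RNA, at -0.79 ± 0.15 (adjusted p = 0.0432 and 0.0425). PARP12 stood at -0.85 ± 0.16 between the hairpins (adjusted p = 0.0327).

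**Figure D5:**
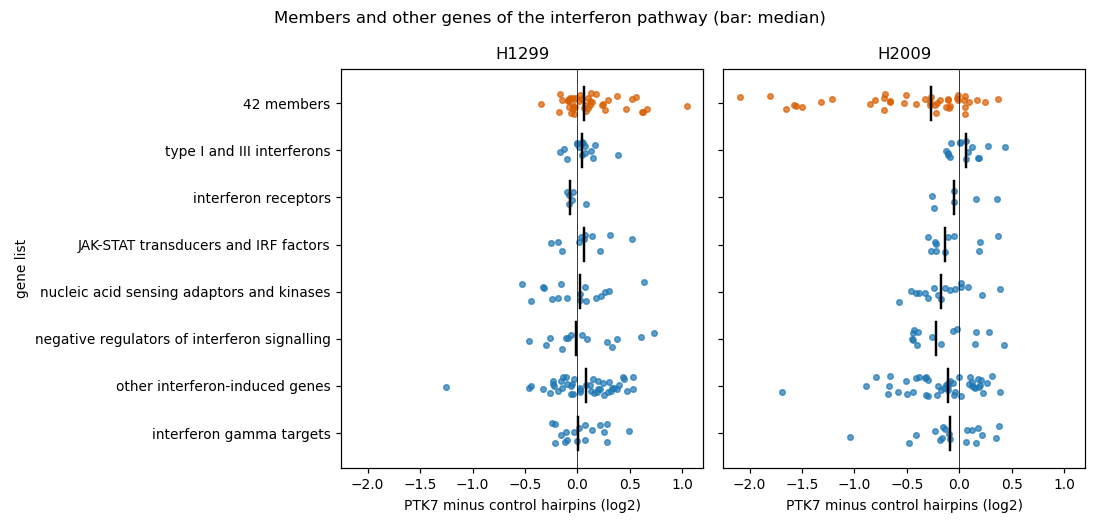
Log2 difference of PTK7 minus control hairpins (x axis) for the 42 members (top row) and the genes of 7 interferon pathway lists (other rows), in H1299 at the left and H2009 at the right; each point is 1 gene, spread vertically for visibility, and black bars are medians. The member median is 0.06 in H1299 and -0.27 in H2009, and a few genes can stand in more than 1 list.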

How the data were processed

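Total RNA was measured on 8 single-label Affymetrix arrays. The authors deposited log2 values per probe set; the submitters' processing notes name RMA and R 2.14.0. RMA corrects background, normalizes between arrays and summarises probes. Of 32321 probe sets, 19158 carried 1 gene symbol, 1388 several, and 11775 were not listed in the annotation table. Where a gene had several (637 genes), its brightest probe set was kept, giving 18404 genes.

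Limma 3.58.1 (R 4.3.3) fitted group means to all 8 arrays, or hairpin plus line where hairpins were compared. Moderated p-values were adjusted across all genes by Benjamini and Hochberg and called under 0.05. Errors after ± are standard errors of the fit. The number of arrays limits precision. Simulation of the H2009 comparison (18404 genes, 5 runs) recovered 50.6% of genes set to 2-fold and 86.4% of those set to 4-fold. Among its calls 5.12% were false. Its noise was drawn independently for each gene and array from that gene's own residual spread. The real H2009 comparison called 0 genes, and DDX60 at 4.27-fold did not pass. The recovered shares therefore hold for the simulated data only.

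The members, lists and comparisons were chosen with earlier results of these data known. Members given in full had the largest differences (8 in H2009, 5 in H1299, 6 at baseline, 5 between PTK7 hairpins, 4 between control hairpins), with IRF7, IRF9 and PTK7; other lists gave up to 3 genes by unadjusted p in H2009 and 2 at baseline. Further genes were named after their values were seen. Pairing comes from the labels, which give both lines the same hairpins; deviations from group means correlated between lines at 0.230 (control) and 0.407 (PTK7 hairpins), so a replicate block was also fitted. Alternatives were quantile normalization, median centring, no dim genes, mean of probe sets, a trended prior, an additive fit of line and knockdown, single-line fits and leaving out each array. Figures used matplotlib 3.10.9 (Python 3.11.15).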

Additional observations from a re-analysis of the deposited data

How the results depend on the processing

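No member passed the threshold in the knockdown comparison of either line or in the test between lines, in any alternative run. With the hairpin as a block 1 member, DDX60, passed in the averaged comparison, and this changed no other knockdown call. At baseline 26 of 42 members passed with the block (31.3% of all genes), 16 of the 27 left without the dimmest 40% of genes (33.0%), and 16 to 29 of 42 on leaving out each array (11.9% to 28.8%). Leaving out arrays in turn gave 0 to 1 members for PTK7-1 (OAS3, with 0 to 347 genes called over all) and for PTK7-2 (SAMD9L, 18 to 545 genes) against controls. Between the PTK7 hairpins it gave 0 to 3 (OAS3, HERC6 and SAMD9L without PTK7-2 of H2009, 0 to 943 genes), and quantile normalization and median centring gave 0. On leaving out each array the member median ran from -0.34 to -0.24 in H2009 and from -0.00010 to 0.08 in H1299. Averaged over the lines it ran from -0.15 to -0.06. The counts at an unadjusted p under 0.05 changed with the array left out, which leaves 1 array in a group. Between the PTK7 hairpins, leaving out each array gave -1.95 to 0.010 for IFIT2 and -1.68 to 0.0036 for IFIT3, above 0 without PTK7-2 of H1299. DDX60 between GFP and LUC ran from -0.27 to 1.34, below 0 without LUC of H1299 and without GFP of H2009 (-0.01). On the arrays the order was the same in both lines, with IFIT2 and IFIT3 lower under PTK7-1 and DDX60 higher under GFP. With an array left out, the fit of hairpin plus line estimates the missing reading from the line difference of the other hairpins. These changes of sign therefore rest on a line difference taken as equal for all hairpins, and not on reversed readings. Over all genes the block, which takes differences between hairpins out of the error, called 149 in the averaged comparison against 0 without it. The cause of the other shifts was not tested.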
